A study of Mus musculus with 3 samples.

Results

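Expression of 8 genes of natural killer (NK) biology was followed in the lymphoid cells of cultured mouse thymus. The genes were 6 receptors (Klrd1, Klre1, Klrb1c, Klrk1, Klrc1 and Ncr1) and 2 transcription factors (Tbx21 and Eomes), chosen by name from the 32285 genes of the count matrix. Raw counts of unique molecular identifiers (UMIs) were summed over 5595 lymphoid cells of 8392 assigned cells. The cells were split by pool and by whether the filtered list of assembled T cell receptor (TCR) contigs held an entry for them. All cells were wild type and untreated per the labels and taken on culture day 13. The mice were C57BL/6J per the study's methods, which give no strain for the fibroblasts. The FTOC pool came from fetal thymic organ culture, in which intact lobes of E13.5 embryos were kept. The ORFTOC pool came from organoid reaggregate fetal thymic organ culture, in which thymic epithelial cells of E16.5 embryos, grown as organoids, were reaggregated with E13.5 thymus cells depleted of epithelium and with embryonic fibroblasts. Both kinds of culture were kept in the same medium with FGF7. Each pool mixed 2 cultures under a single hashtag antibody and is therefore 1 sample, so no test between pools or between groups of cells was possible, and every interval below (95%) covers counting error only.

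NK cells are lymphocytes that need no rearranged antigen receptor and instead read a balance of activating and inhibitory surface receptors. Many of these receptors are C-type lectins encoded side by side in the NK gene complex, and they are not restricted to NK cells, because innate lymphoid cells, γδ T cells and some activated or unconventional αβ T cells also carry them. T-bet (Tbx21) and Eomes are related T-box factors that direct the group 1 innate lymphoid and cytotoxic T cell programmes. The filtered list held only contigs of the α (TRA) and β (TRB) chains, so γδ T cells as well as NK cells can stand among the cells without contigs.

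The lymphoid cells of the FTOC pool comprised 765 without contigs (25.4%, Clopper-Pearson interval 23.8 to 27.0) and 2248 with contigs. The ORFTOC pool comprised 1098 without (42.5%, 40.6 to 44.5) and 1484 with. The median depth was 5680 UMIs per contig-free cell and 2088.5 per cell with contigs in FTOC, against 5153 and 5203.5 in ORFTOC. Levels are therefore given as UMIs per 1000000 of the summed UMIs of a group (CPM), with exact Poisson intervals. UMIs were read from the 5′ end of transcripts and are not divided by gene length, so levels are compared between groups of cells and not between genes. The list of filtered contigs held 7227 entries from 4649 barcodes, and 3911 of these barcodes were assigned cells. Filtered contigs were also found in 16.3% of macrophage and dendritic cells and in 3.98% of epithelial cells. The pools differed in sex-linked transcripts as well, with Xist at 560 CPM in FTOC and 219 CPM in ORFTOC lymphoid cells and 4 against 853 UMIs of the Y-linked gene Eif2s3y. Sex and culture type cannot be told apart in any difference between pools.

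The members together were higher in cells without contigs in both pools. Their sum reached 517 CPM (497 to 537) in contig-free FTOC cells and 185 CPM (177 to 194) in FTOC cells with contigs, a log2 ratio of 1.48 (1.39 to 1.57). In ORFTOC the sums were 252 CPM (240 to 265) and 119 CPM (112 to 125), a log2 ratio of 1.09 (0.98 to 1.20). Most of these UMIs came from Klrd1, which gave 5503 of the 7347 member UMIs in lymphoid cells (74.9%). With Klrd1 left out the log2 ratios were 1.80 in FTOC and 1.75 in ORFTOC. By the rule used for every gene (at least 2 fold, at least 10 CPM in the higher group and at least 10 UMIs), 6 of the 7 members that passed the filter on low values were higher in contig-free FTOC cells, where 6.14% of the 8432 genes compared were. In ORFTOC 4 of 6 were higher, against 12.4% of 8515 genes. No member was lower in either pool, where 5.09% and 7.29% of genes were. Members that failed the filter were Klre1 in both pools and Klrc1 in ORFTOC. Summed counts cannot tell apart fewer cells of a type from less RNA per cell, and the part played by each is described below through the clusters.

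**Figure D1:**
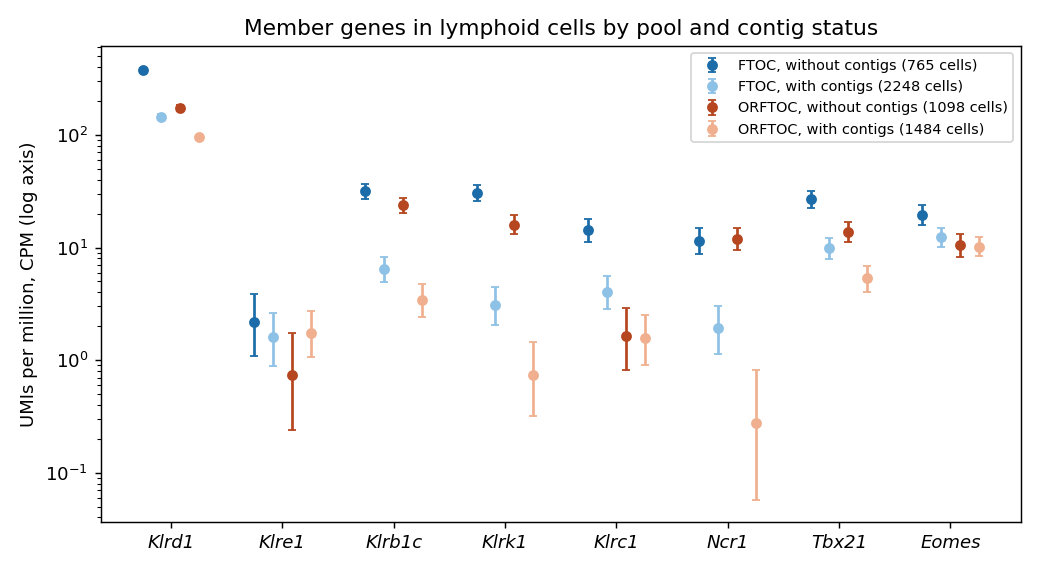
Levels of the 8 members in CPM (log axis) in lymphoid cells of each pool, with and without filtered contigs. Points are group sums and bars exact 95% Poisson intervals; Klrk1 and Ncr1 show the widest gap between contig-free cells and cells with contigs, whereas the 4 groups lie close together for Eomes except in contig-free FTOC cells.

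Klrd1 encodes CD94, the common partner of the NKG2 receptors, and lies on chromosome 6 (chr6:129588092-129598775, GRCm38.p6). It stood at 380 CPM (363 to 398) without and 146 CPM (138 to 154) with contigs in FTOC, and at 174 CPM (164 to 184) and 95.2 CPM (89.5 to 101) in ORFTOC. The log2 ratios were 1.38 (1.28 to 1.48) and 0.87 (0.75 to 0.99), so the gap in ORFTOC was below 2 fold. Of the 907 lymphoid cells with a Klrd1 UMI, 51.4% (48.1 to 54.7) had no contig. It was also the member with the most UMIs per positive cell, with a median of 4 and a maximum of 39.

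Klrc1 encodes NKG2A, which pairs with CD94 to form an inhibitory receptor (chr6:129666015-129682852). Its 138 UMIs were placed unevenly, with 14.2 CPM (11.1 to 17.9) in contig-free FTOC cells and between 1.57 and 4.04 CPM in the other 3 groups. The log2 ratio of contig-free cells over cells with contigs was 1.82 (1.23 to 2.42) in FTOC and 0.06 (-1.18 to 1.24) in ORFTOC. Klrc1 shares sequence with its neighbours Klrc2 and Klrc3, so reads could be split between them and its level is uncertain. Klrc2 showed the same contrast between the pools, with 15.0 CPM in contig-free FTOC cells and 3.86 CPM in contig-free ORFTOC cells, whereas Klrc3 had at most 2 UMIs in any group.

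Klre1 encodes a lectin of the same gene cluster that associates with KLRI receptors (chr6:129559365-129585828). It had only 50 UMIs in 28 lymphoid cells, 27 of which also had Klrd1. Its 4 groups lay between 0.742 and 2.17 CPM, and the intervals of both log2 ratios spanned 0 (0.45, -0.82 to 1.67 in FTOC, and -1.24, -3.02 to 0.23 in ORFTOC). No difference was detectable for Klre1 at this depth.

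The activating receptors showed the largest gaps. Klrk1 encodes NKG2D, a receptor for stress-induced ligands (chr6:129610323-129623903). It stood at 30.6 CPM (26.0 to 35.8) without and 3.08 CPM (2.06 to 4.43) with contigs in FTOC, and at 16.0 CPM (13.1 to 19.3) and 0.738 CPM (0.319 to 1.45) in ORFTOC. The log2 ratios were 3.31 (2.73 to 3.94) and 4.44 (3.41 to 5.69). Of its 160 positive lymphoid cells, 86.2% (79.9 to 91.2) had no contig, the highest share of the 8 members.

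Klrb1c encodes the NK1.1 antigen of C57BL/6 mice (chr6:128778485-128788641). Its levels were 31.6 CPM (26.9 to 36.9) and 6.48 CPM (4.96 to 8.33) in FTOC and 23.7 CPM (20.2 to 27.7) and 3.41 CPM (2.40 to 4.70) in ORFTOC. This gave log2 ratios of 2.28 (1.85 to 2.73) and 2.80 (2.27 to 3.36). Klrb1a and Klrb1b are close relatives of Klrb1c that could take part of its reads, so its level is uncertain too.

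Ncr1 encodes NKp46, a receptor found on NK cells and on some innate lymphoid cells (chr7:4337715-4345184). It stood at 11.5 CPM (8.70 to 14.8) without and 1.91 CPM (1.13 to 3.02) with contigs in FTOC. In ORFTOC it stood at 12.0 CPM (9.54 to 14.9) without contigs, and only 3 UMIs (0.277 CPM) were found in the 1484 cells with contigs. The log2 ratios were 2.58 (1.80 to 3.43) and 5.44 (3.84 to 7.75). Between the contig-free cells of the pools, the log2 ratio of Ncr1 (ORFTOC over FTOC) was 0.07 (-0.44 to 0.58).

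Of the factors, Tbx21 (chr11:97098007-97115331) had a larger gap between contig-free cells and cells with contigs than Eomes (chr9:118478186-118486132). Tbx21 stood at 27.1 CPM (22.7 to 32.0) without and 9.89 CPM (7.98 to 12.1) with contigs in FTOC, and at 13.8 CPM (11.1 to 16.9) and 5.35 CPM (4.06 to 6.92) in ORFTOC, giving log2 ratios of 1.45 (1.06 to 1.85) and 1.37 (0.88 to 1.87). Eomes stood at 19.6 CPM (15.9 to 23.8) and 12.3 CPM (10.2 to 14.8) in FTOC, a log2 ratio of 0.66 (0.26 to 1.06). In ORFTOC it stood at 10.5 CPM (8.23 to 13.3) without and 10.2 CPM (8.42 to 12.3) with contigs, and the interval of its log2 ratio spanned 0 (0.04, -0.41 to 0.48). The contig-free share was 59.2% (52.8 to 65.4) of the 250 Tbx21 cells and 45.5% (38.9 to 52.1) of the 231 Eomes cells.

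Klrd1 was present in barcodes too small to be cells. Barcodes with at most 50 UMIs held Klrd1 at 45.0 CPM, Eomes at 8.57 CPM, Klrb1c and Tbx21 at 7.5 CPM each, Klrc1 at 2.14 CPM, Klrk1 and Ncr1 at 1.07 CPM each and no Klre1. In cells that should lack the receptors the levels were far lower. Klrd1 stood at 1.99 CPM in the 2184 epithelial cells, of which 0.778% had a UMI at a median of 12745 UMIs per cell. Ncr1 had 0 UMIs in all 2184 epithelial cells, which allows a share of cells with a UMI of up to 0.137% (3 counts of the total). In contrast, 36.5% of contig-free FTOC, 10.4% of contig-bearing FTOC, 17.0% of contig-free ORFTOC and 14% of contig-bearing ORFTOC lymphoid cells had a Klrd1 UMI. With every cell thinned to 1000 UMIs, which left out 116 shallower lymphoid cells, these shares were 18.6%, 4.49%, 7.47% and 4.12%, and 0.137% in epithelial cells. At full depth the contig-bearing ORFTOC cells had the larger Klrd1 share of the contig-bearing groups, but after thinning the shares lay within counting error of each other, and the CPM in ORFTOC was the lower of the pair. Over both pools, the highest levels in other cell types were those of Klrk1 and Klrd1 in the 215 macrophage and dendritic cells. Klrk1 stood there at 7.14 CPM (4.66 to 10.5, 7.44% of cells) and Klrd1 at 6.59 CPM (4.22 to 9.8, 4.65% of cells). Tbx21 followed in epithelial cells (4.24 CPM).

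Immune cells had been clustered without the members and without any other Klr gene, and 91.5% of the member UMIs of lymphoid cells fell in 3 of 16 lymphoid clusters. These clusters held 980 cells, or 17.5% of the lymphoid cells. Cluster 7 (377 cells) gave 46.5% of member UMIs, cluster 5 (443 cells) 35.4% and cluster 14 (160 cells) 9.68%. Their median depths were 11535, 8288 and 14170.5 UMIs, against 4082 over all lymphoid cells. Cluster 7 was led by Xcl1, Gzmc, Cd7 and Gzmb, and scored highest for the NK or group 1 innate lymphoid markers. However, 33.2% of its cells had contigs and most of the others had CD3 transcripts, as described below, so it is referred to by its number. Cluster 5 was led by Ly6c2, Jchain, Plac8 and Nkg7, with the δ chain segment Trdv5 also among its 10 leading genes, and 45.8% of its cells had contigs. Cluster 14 was led by histone and replication genes, and 78.8% of its cells had contigs.

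**Figure D2:**
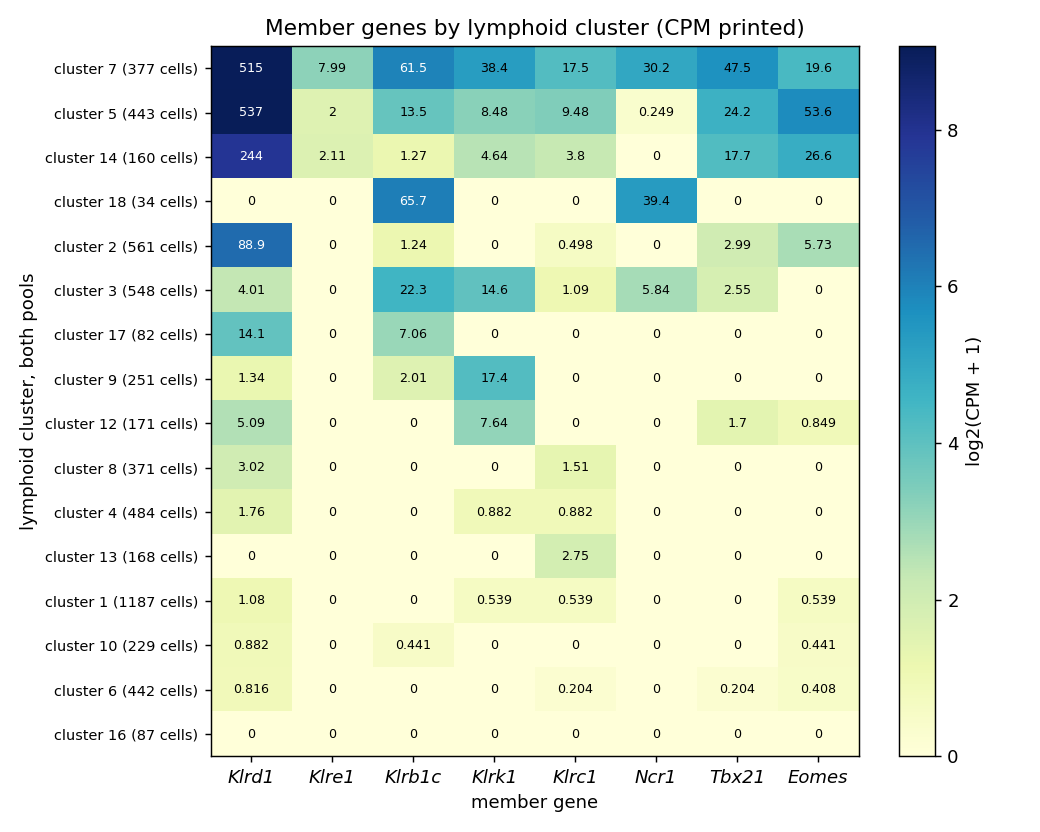
CPM of each member in each of the 16 lymphoid clusters, both pools together, ordered by the sum over members; colour is log2(CPM + 1) and the number printed is the level itself. Clusters 7, 5 and 14 carry Klrd1, Tbx21 and Eomes together, while Klrb1c, Klrk1 and Ncr1 also appear in cluster 3, and Klrb1c and Ncr1 in cluster 18, neither of which has Eomes UMIs.

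The members did not share a single order of clusters. Klrd1 was as high in cluster 5 (537 CPM) as in cluster 7 (515 CPM), with a log2 ratio of cluster 7 over cluster 5 of -0.06 (-0.15 to 0.02), ahead of cluster 14 (244 CPM) and of the mature single-positive cluster 2 (88.9 CPM). Eomes was higher in cluster 5, at 53.6 CPM against 19.6 CPM in cluster 7 (log2 ratio -1.45, -1.82 to -1.09). Tbx21 was higher in cluster 7, at 47.5 CPM against 24.2 CPM (0.97, 0.62 to 1.33). The receptors Klrb1c (61.5 against 13.5 CPM, 2.19, 1.77 to 2.64) and Klrk1 (38.4 against 8.48 CPM, 2.18, 1.64 to 2.75) were also higher in cluster 7, as was Klrc1 (17.5 against 9.48 CPM, 0.88, 0.31 to 1.48). Ncr1 separated them most, with 140 UMIs in cluster 7 and 1 UMI in cluster 5. Cluster 7 held 87.5% of all Ncr1 UMIs in lymphoid cells, 68.2% of Klrb1c, 57.7% of Tbx21, 43.3% of Klrd1 and 22.9% of Eomes.

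Outside these clusters, Klrb1c, Klrk1 and Ncr1 were found where Klrd1 and Eomes were low. Cluster 3 (548 cells, 2.55% with contigs, 79.9% from ORFTOC), led by Nrgn and Lta, had Klrb1c at 22.3 CPM, Klrk1 at 14.6 CPM and Ncr1 at 5.84 CPM, whereas Klrd1 was at 4.01 CPM and Eomes at 0 UMIs. The ILC2-like cluster 9 (251 cells, 92.4% from ORFTOC) had Klrk1 at 17.4 CPM, and the γδ T-like cluster 12 had Klrk1 at 7.64 CPM. The ILC3-like cluster 18 had only 34 cells, with Klrb1c at 65.7 CPM from 5 UMIs and Ncr1 at 39.4 CPM from 3 UMIs, too few to place them against the 61.5 and 30.2 CPM of cluster 7. In the double-positive cluster 1, the largest with 1187 cells, Klrd1 was at 1.08 CPM.

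The contig contrast moved with the make-up of the groups. Clusters 5, 7 and 14 made up 38.7% (35.2 to 42.2) of contig-free FTOC cells and 10.5% (9.30 to 11.9) of FTOC cells with contigs, and 20.9% (18.6 to 23.5) against 14.6% in ORFTOC. Restricted to these clusters, an alternative added after the data had been seen, the log2 ratio of the summed members was 0.52 in FTOC and 0.82 in ORFTOC, and without them it was 0.71 and 0.54. Klrd1 changed sign in the remaining clusters, where it was lower in contig-free cells (log2 ratio -0.82 in FTOC and -0.95 in ORFTOC), and Eomes changed sign within the 3 clusters in FTOC (-0.36). Counting any unfiltered contig, productive or not, as a contig lowered the ratio of the sum to 0.86 in FTOC and 0.29 in ORFTOC, where Tbx21 changed sign (-0.75). This setting also moved many cells that had no unfiltered TRA or TRB contig. In cluster 3, 466 of 534 contig-free cells had any unfiltered contig, but 13 had one of TRB and 8 one of TRA. In cluster 7, 221 of 252 had any, 63 had one of TRB and 3 one of TRA. Giving every cell equal weight moved the FTOC ratio to 2.27.

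Within clusters the members again differed. In cluster 5, the contig-free and contig-bearing cells had Tbx21 at 24.0 and 24.4 CPM (log2 ratio -0.02, -0.63 to 0.58) and Eomes at 54.3 and 52.9 CPM (0.04, -0.36 to 0.44). Klrd1 was at 582 and 488 CPM (log2 ratio 0.25, 0.13 to 0.38). Klrk1 was nearly limited to the contig-free cells of cluster 5, with 32 UMIs against 2, and Klrc1 was at 14.9 against 3.63 CPM (2.04, 0.82 to 3.46). All 31 contig-free Klrc1 UMIs of cluster 5 came from FTOC, where the levels were 23.7 against 3.42 CPM (2.79, 1.29 to 4.76), and in ORFTOC there were 0 against 3 UMIs. In cluster 7, both pools together, the activating receptors were higher without contigs. Ncr1 was at 43.7 against 10.2 CPM (2.10, 1.40 to 2.88), Klrk1 at 53.9 against 15.5 CPM (1.79, 1.21 to 2.42) and Klrb1c at 79.2 against 35.4 CPM (1.16, 0.76 to 1.58). The gaps were smaller in FTOC than in ORFTOC. Klrk1 was at 1.40 (0.72 to 2.14) in FTOC and 2.50 (1.35 to 3.88) in ORFTOC, and Klrb1c at 0.65 (0.15 to 1.17) and 1.93 (1.21 to 2.72). Ncr1 was at 0.91 (0.10 to 1.79) in FTOC and had 68 against 2 UMIs in ORFTOC. Tbx21 was at 57.8 without and 32.2 CPM with contigs (0.85, 0.41 to 1.3), and Eomes at 14.8 and 26.8 CPM (-0.85, -1.49 to -0.23). By pool, the intervals of both factors spanned 0 in FTOC (Tbx21 0.34, -0.20 to 0.89, and Eomes -0.50, -1.35 to 0.37). In ORFTOC Tbx21 was at 49.2 against 15.5 CPM (1.66, 0.86 to 2.55) and Eomes at 10.1 against 26.2 CPM (-1.37, -2.42 to -0.39). Klre1 was also lower in the contig-free cells of cluster 7, with 13 UMIs against 24 (-1.45, -2.55 to -0.42; the interval spanned 0 in FTOC alone), and 14 of those 24 UMIs lay in the 5 cells with UMIs of both factors.

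In clusters 5, 7 and 14 most cells without a contig had transcripts of the TCR complex. All 240 contig-free cells of cluster 5 had a UMI of a CD3 gene (Cd3d, Cd3e or Cd3g, subunits of the TCR complex), as did 241 of 252 (95.6%, 92.3 to 97.8) in cluster 7 and all 34 in cluster 14. Over all lymphoid cells, 28.4% of those without and 0.322% of those with contigs had no CD3 UMI. Trac, the constant segment of the α chain, was at 46.0 CPM without and 126 CPM with contigs in FTOC and at 24.0 and 120 CPM in ORFTOC. For comparison, a CD3 UMI was present in 13.7% of the contig-free cells of cluster 3 and in 9.58% of epithelial cells without a Tbx21 UMI. Trdc, the constant segment of the TCR δ chain, had a UMI in 79.6% (73.9 to 84.5) of contig-free and 35.0% (28.4 to 42) of contig-bearing cells of cluster 5. The shares were 56.3% (50 to 62.6) and 40.8% (32.1 to 49.9) in cluster 7, and 82.4% and 15.1% in cluster 14. Trdc transcripts are known to occur in NK cells as well, and germline transcripts do not show a rearranged chain.

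Some members divided along these transcripts within the contig-free cells of cluster 7. Ncr1 stood at 16.1 CPM (10.9 to 23) in the 142 cells with a Trdc UMI and at 100 CPM (80.9 to 123) in the 110 cells without. Klrb1c was at 58.6 and 121 CPM, Klrk1 at 39.2 and 83.9 CPM and Klrd1 at 513 and 712 CPM in the same order. Klrc1 was at 11.3 CPM (6.99 to 17.3) and 27.6 CPM (17.9 to 40.7). The intervals overlapped for Tbx21 (50.5 CPM, 40.8 to 61.8, and 72.9 CPM, 56.3 to 92.7). They also overlapped for Eomes (14.5 and 15.5 CPM) and Klre1 (4.3 and 5.52 CPM). The median depth was 12075 UMIs in cells with and 7350.5 in cells without a Trdc UMI. In the 11 cells without any CD3 UMI, Ncr1 reached 375 CPM (235 to 568), Klrk1 341 CPM (208 to 526), Klrb1c 256 CPM (143 to 422) and Klrc1 136 CPM (58.9 to 269). In the 241 cells with a CD3 UMI these genes were at 36.6, 47.6, 75.3 and 14 CPM. The levels in the 11 cells rest on 22, 20, 15 and 8 UMIs in that order. A single lymphoid cell held up to 12 Ncr1 or 13 Klrc1 UMIs, so few cells may carry these levels. Klrd1, in contrast, was at 443 CPM (289 to 649) without and 581 CPM (553 to 611) with a CD3 UMI. Eomes had 0 UMIs in the 11 cells, with an interval up to 62.9 CPM, and 15.1 CPM in the others, a difference not detectable at this depth. The median depth was 5091 UMIs in the 11 cells and 10353 in the others. The part of depth in either split was not tested.

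**Figure D3:**
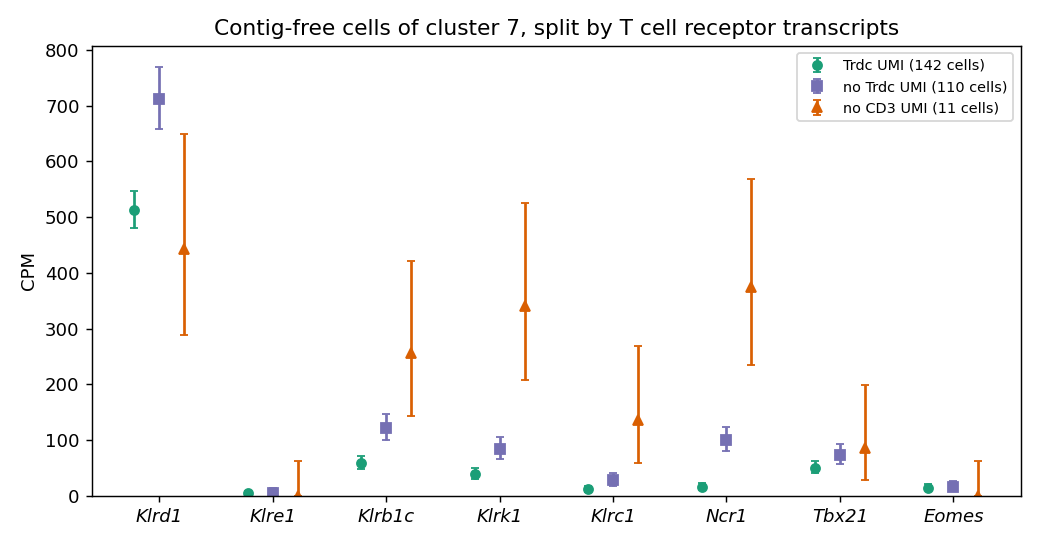
CPM of each member (bars, exact 95% Poisson intervals) in the contig-free cells of cluster 7 with a Trdc UMI, without one, and without a UMI of any CD3 gene; the last class was drawn separately from the Trdc classes and shares cells with them. Ncr1, Klrk1, Klrb1c and Klrc1 are highest in the 11 cells without a CD3 UMI, and Klrd1 is not.

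Between pools, contig-free cells had lower members in ORFTOC. The sum was 252 CPM against 517 CPM in FTOC (log2 ratio -1.03). Klrd1 was at 174 against 380 CPM (-1.13, -1.23 to -1.02) and Klrc1 at 1.63 against 14.2 CPM (-3.12, -4.19 to -2.20). These were the 2 of 7 members that were at least 2 fold lower, against 1.51% of 8362 genes, and none was higher, against 3.62%. The other intervals lay below 0 for Tbx21 (-0.97, -1.37 to -0.58), Klrk1 (-0.93, -1.30 to -0.57), Eomes (-0.89, -1.35 to -0.44) and Klrb1c (-0.41, -0.74 to -0.09), and spanned 0 for Ncr1 and Klre1. In cells with contigs the sum differed by -0.65 on the log2 scale and Klrd1 by -0.62 (-0.74 to -0.50). Neither of the 2 members tested there was past 2 fold in either direction, where 0.174% of 8027 genes were higher and 1.32% lower in ORFTOC. The other members failed the filter on low values there, and values within clusters are given below. The values for cells with contigs depended on the weighting of cells, since with every cell weighted equally the log2 ratio of the sum was -0.01.

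Clusters 5 and 7 kept a smaller pool difference in Klrd1. Contig-free cells of cluster 5 were 21.0% (18.2 to 24.1) of the contig-free FTOC cells and 7.19% (5.74 to 8.89) of the contig-free ORFTOC cells, whereas cluster 7 made up 15.4% (12.9 to 18.2) and 12.2% (10.3 to 14.3). Within contig-free cells Klrd1 was at 431 CPM in ORFTOC and 670 CPM in FTOC in cluster 5 (-0.64, -0.82 to -0.45) and at 509 and 648 CPM in cluster 7 (-0.35, -0.49 to -0.21). Klrc1 kept the largest difference. It had 0 UMIs in 79 ORFTOC cells and 31 UMIs in 161 FTOC cells of cluster 5, and 6.51 against 26.7 CPM in cluster 7 (-2.04, -3.27 to -0.96). Few cells carried these UMIs, since only 18 of all 443 cells of cluster 5 had one and a single lymphoid cell held up to 13. Over all contig-free lymphoid cells, 34 FTOC and 7 ORFTOC cells had a Klrc1 UMI. Klrk1 was at 38.3 against 69.4 CPM in cluster 7 (-0.86, -1.37 to -0.36). The other intervals within these cells spanned 0 where both pools had enough UMIs for one. In cluster 7 they were -0.43 (-0.91 to 0.03) for Tbx21, -0.33 (-0.73 to 0.07) for Klrb1c, -0.95 (-1.99 to 0.04) for Eomes, 0.36 (-0.18 to 0.91) for Ncr1 and -0.68 (-2.63 to 1.12) for Klre1. In cluster 5 they were -0.32 (-1.28 to 0.57) for Tbx21, -1.01 (-2.47 to 0.24) for Klrb1c, 0.22 (-0.35 to 0.78) for Eomes and -0.82 (-2.19 to 0.38) for Klrk1. In the contig-bearing cells of cluster 7, Tbx21 was at -1.76 (-2.69 to -0.91) and Klrb1c at -1.61 (-2.46 to -0.81). Klrk1 and Klrc1 also lay below 0 there, Ncr1 had 2 UMIs against 17, and Eomes and Klre1 spanned 0. The sum in cluster 7 was -0.71 with and -0.39 without contigs. In cluster 5 it was -0.30 and -0.61, and in cluster 14 -1.11 and -0.72. Restricted to clusters 5, 7 and 14, the contig-free log2 ratio of the sum was -0.45. Without these clusters it turned to 0.27, with Klrd1 at 0.26, Klrb1c at 1.07 and Tbx21 at 0.19, and in cells with contigs it turned to 0.44.

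**Figure D4:**
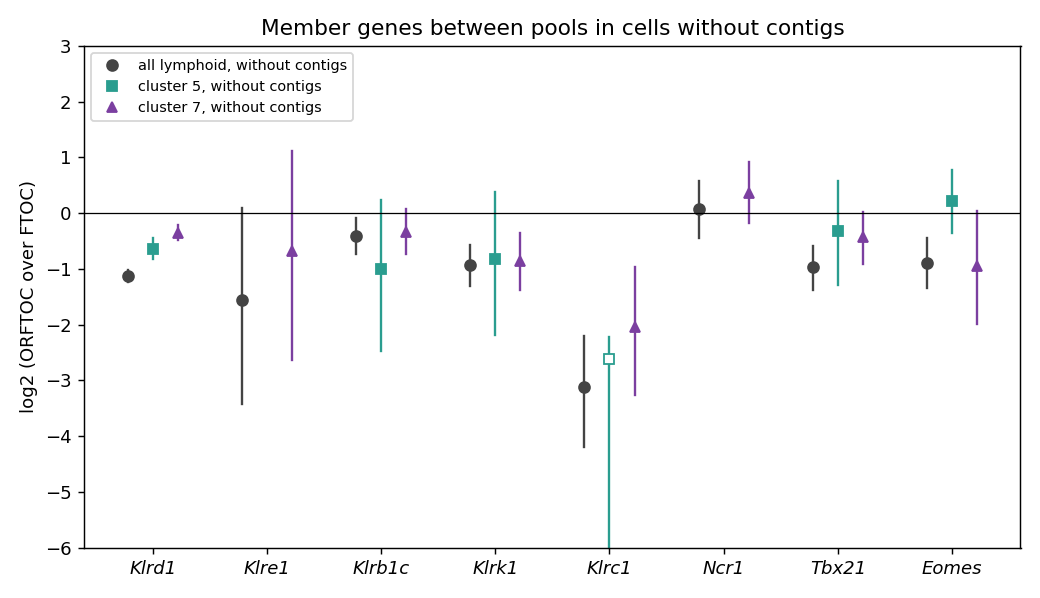
log2 ratio of ORFTOC over FTOC for each member in contig-free cells: all lymphoid cells, cluster 5 and cluster 7. Bars are 95% intervals for counting error, the open square is a bound from 0 UMIs set to 3, its bar runs off the axis, and points are left out where both pools had under 3 UMIs; Klrc1 lies below 0 in all 3 sets, and the bars of Ncr1 cross 0 in both sets shown.

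Most cells with a UMI of Tbx21 or Eomes had UMIs of only 1 of these factors. Of the 443 cells of cluster 5, 24 (5.42%) had UMIs of both, 48 (10.8%) of Tbx21 alone and 107 (24.2%) of Eomes alone. Of the 377 cells of cluster 7, 10 (2.65%) had both, 121 (32.1%) Tbx21 alone and 36 (9.55%) Eomes alone. At a median of 1 UMI per positive cell many cells that contain both transcripts would be counted under 1 factor or neither, so the classes describe detection. A Tbx21 UMI was found in 18.3% (12.1 to 26.0) of the Eomes cells of cluster 5, where 72 of all 443 cells had one. In cluster 7 it was found in 21.7% (10.9 to 36.4) of the Eomes cells, where 131 of all 377 cells had one. Among all lymphoid cells, 20.8% (15.7 to 26.6) of Eomes cells and 4.47% of all cells had one. Klrd1 was shared between cells with either factor, with a UMI in 82.8% of Tbx21 cells, 87.4% of Eomes cells and 16.2% of all lymphoid cells. Within clusters most cells had one whatever the factor, with 378 of all 443 cells in cluster 5 and 300 of all 377 in cluster 7. Across lymphoid cells, Ncr1 was at 18.4 CPM in cells with Tbx21 alone, 0.464 CPM (1 UMI) in cells with Eomes alone and 4.13 CPM in cells with neither. Klrb1c was at 51.8, 11.1 and 9.08 CPM in the same order and Klrk1 at 32.5, 15.3 and 7.0 CPM. In cluster 7 alone, Ncr1 had 41 UMIs (27.6 CPM) in the Tbx21 cells and 1 UMI (1.97 CPM) in the Eomes cells, and 37.5 CPM in cells with neither. Klrk1 was at 44.5, 33.5 and 36.7 CPM in these classes and Klrb1c at 75.5, 27.6 and 56.7 CPM. Among the contig-free cells of cluster 7, Klrb1c was at 78.8, 29.8 and 81.8 CPM. In cluster 5 it was at 13.0, 8.32 and 12.6 CPM.

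**Figure D5:**
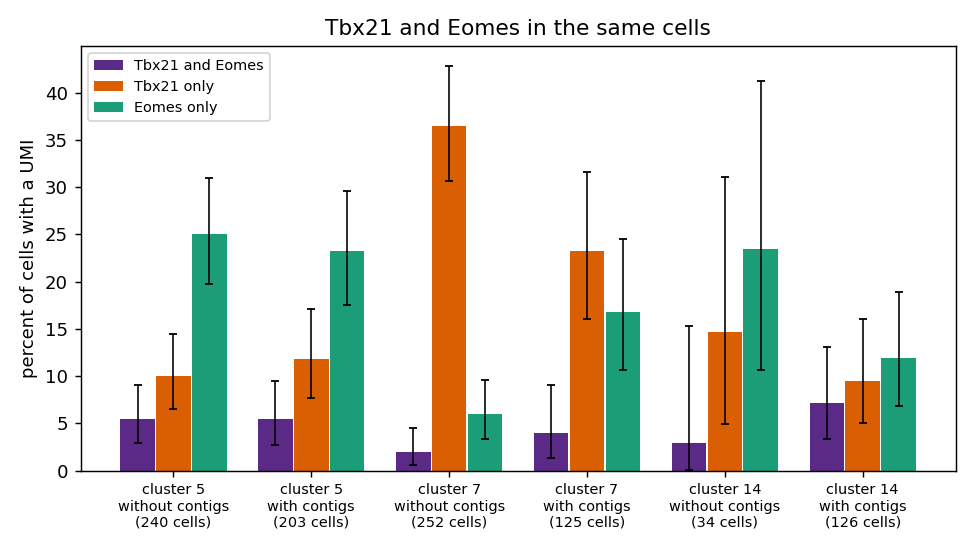
Percent of cells with UMIs of Tbx21 and Eomes, of Tbx21 alone or of Eomes alone in clusters 5, 7 and 14, split by contigs; bars start at 0 and error bars are 95% Clopper-Pearson intervals. Eomes alone is the most frequent class in cluster 5 in both contig groups, and Tbx21 alone in cluster 7.

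T-box factors bind sequences with the core GGTGT. These letters were searched, on either strand, in RefSeq promoters of GRCm38.p6 that run from 250 bases before to 50 bases after each start. The table matched 7 of the 8 members, with 9 promoters. The core was found for 3 of these 7 members (Klrb1c, Klrc1 and Eomes) and in 41.6% of all 32851 promoters. The longer form GGTGTGA, which contains the core, was in 3.98% of promoters and in no member's. The promoters of Klrc1 (chr6:129678924-129679223, minus strand), the member with the largest fold difference between pools in contig-free cells, and of Klrb1c (chr6:128788592-128788891, minus strand), which was higher in Tbx21 cells, are shown with the core in capitals.
Klrc1: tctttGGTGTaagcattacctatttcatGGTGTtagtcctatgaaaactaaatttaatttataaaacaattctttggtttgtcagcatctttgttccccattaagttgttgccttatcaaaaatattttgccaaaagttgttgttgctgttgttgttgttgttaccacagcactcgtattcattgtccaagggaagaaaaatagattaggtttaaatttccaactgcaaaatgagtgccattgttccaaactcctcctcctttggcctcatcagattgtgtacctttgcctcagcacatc
Klrb1c: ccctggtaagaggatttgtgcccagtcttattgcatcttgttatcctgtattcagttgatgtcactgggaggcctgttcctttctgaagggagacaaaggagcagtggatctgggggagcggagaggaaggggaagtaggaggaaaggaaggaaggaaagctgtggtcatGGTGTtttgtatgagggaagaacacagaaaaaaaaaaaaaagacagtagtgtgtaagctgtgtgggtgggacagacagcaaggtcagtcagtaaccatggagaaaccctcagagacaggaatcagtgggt
A match of this length is frequent and is no evidence of binding.

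Cells with both a Klrd1 UMI and contigs had more complete receptors and fewer shared chains than other contig-bearing cells. TRB and TRA contigs were found together in 56.2% (49.6 to 62.7) of 233 Klrd1 cells with contigs in FTOC and in 41.2% (39.1 to 43.4) of the 2015 without Klrd1. In ORFTOC the shares were 76.4% (70.1 to 82.0) of 208 and 44.9% (42.2 to 47.7) of 1276. The share differed between clusters. Of FTOC cells with TRB contigs, 68 of 128 in cluster 5, 27 of 61 in cluster 7 and 36 of 45 in cluster 14 also had TRA. In the other lymphoid clusters it was 831 of 1996. In ORFTOC the counts were 45 of 71, 38 of 64, 70 of 81 and 579 of 1258 in the same order. Klrd1 cells, with and without contigs together, were also the deeper ones, with medians of 9147.5 UMIs in FTOC and 10504 in ORFTOC. Over all lymphoid cells the medians were 2433 and 5153.5. These medians are not those of the contig-bearing groups compared here. The parts of depth and of cluster were not tested. A TRB chain was called repeated when its V gene, J gene and junction nucleotides occurred in more than 1 cell of its pool. Repeated chains made up 2.83% (1.15 to 5.75) of the TRB chains of Klrd1 cells and 13.2% (11.7 to 14.7) of the others in FTOC, and 17.5% (12.7 to 23.2) against 44.2% (41.5 to 47.0) in ORFTOC. In cluster 5, repeated chains were 1 of 135 in FTOC and 9 of 74 in ORFTOC, and in cluster 7 they were 4 of 62 and 20 of 67.

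A few junctions were shared between these clusters, and 4 are shown because each was found in more than 1 of clusters 5, 7 and 14. Letters are the nucleotides of the TRB junction from the contig list.
ORFTOC TRBV20, TRBJ1-2: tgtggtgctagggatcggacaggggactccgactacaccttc
ORFTOC TRBV12-2+TRBV13-2, TRBJ2-5: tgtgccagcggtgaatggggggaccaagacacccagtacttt
ORFTOC TRBV3, TRBJ1-1: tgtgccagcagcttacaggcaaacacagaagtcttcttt
ORFTOC TRBV13-1, TRBJ2-1: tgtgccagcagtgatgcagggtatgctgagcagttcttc
The first occurred in 3 ORFTOC cells, 1 in cluster 5 and 2 in cluster 7, which together held 54 Klrd1 UMIs. The second occurred in 1 cell of cluster 5 and 1 of cluster 7 (28 Klrd1 UMIs). The third and the fourth each occurred in 1 cell of cluster 7 and 1 of cluster 14, with 11 and 6 Klrd1 UMIs, and the third in 4 ORFTOC cells in all.

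Other genes of NK biology were counted in lists chosen with earlier results of these data known. Over all genes compared, 6.14% were higher and 5.09% lower in contig-free FTOC cells, and 12.4% and 7.29% in ORFTOC. Of further NK receptors, 11 of 12 tested were higher in contig-free FTOC cells and 10 of 11 in ORFTOC, with median log2 ratios of 1.98 and 2.0 against -0.12 and 0.02 over all genes tested. Klra5, a Ly49 family receptor whose reads may be shared with its relatives, stood at 124 CPM without and 24.8 CPM with contigs in FTOC and at 45.5 and 17.2 CPM in ORFTOC. Among adaptors and signalling genes 4 of 9 were higher and 2 lower in each pool, with median log2 ratios of only 0.24 in FTOC and 0.17 in ORFTOC. The higher ones included the receptor adaptors Tyrobp (235 against 37.8 CPM in FTOC) and Fcer1g (552 against 82.2 CPM), whereas Cd247, the ζ chain of CD3, was lower (174 against 367 CPM). Hcst, the adaptor of NKG2D, was at 338 against 162 CPM.

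Cytokine receptors were higher in 5 of 8 (FTOC) and 5 of 7 (ORFTOC), including Il2rb, the β chain of the receptors for interleukins 2 and 15 (306 against 90.5 CPM in FTOC). Lineage regulators were mixed, with 4 of 12 higher and 2 lower in FTOC and 7 of 12 higher and 1 lower in ORFTOC. For both lists the shares over all genes were again 6.14% higher and 5.09% lower in FTOC, and 12.4% and 7.29% in ORFTOC. Of the effectors, Xcl1 (1190 against 235 CPM in FTOC), Ccl5 (545 against 122 CPM) and Gzmb (403 against 103 CPM) were higher, Gzma was lower (118 against 275 CPM), and the pore-forming protein gene Prf1 had 2 UMIs in contig-free FTOC cells. The γδ TCR transcripts Trdc, Tcrg-C1 and Tcrg-C4 were higher in contig-free cells of both pools.

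These genes also separated clusters 5 and 7. In contig-free cells, Klra5 was at 23.5 CPM in cluster 5 and 319 CPM in cluster 7, Tyrobp at 15.4 and 783 CPM, Fcer1g at 88.8 and 1240 CPM, and Gzmb at 47.1 and 1230 CPM. Ccl5, a chemokine gene, was abundant in both, at 901 and 1470 CPM. Itga1, which encodes the tissue-residence integrin CD49a, was at 17.3 and 75.2 CPM, while Itga2, which encodes CD49b of circulating NK cells, was at 1.44 and 4.0 CPM. Between pools, contig-free ORFTOC cells had lower Klra5 (45.5 against 124 CPM), Klrc2, Cd247 and Sh2d1a and higher Klrb1b, Zeb2, Gata3, Rora, Il18r1 and Cd200r1, each at least 2 fold.

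Ligands of the receptors were read in the other cells of the same cultures. H2-T23, which encodes the Qa-1 ligand of CD94 with NKG2A, was at 853 CPM in FTOC and 900 CPM in ORFTOC epithelium, and Clec2d, which encodes a ligand of the KLRB1 family, at 254 and 252 CPM. Il15, the cytokine that sustains NK cells, was at 21.9 CPM (19.4 to 24.7) in FTOC and 42.4 CPM (39.4 to 45.6) in ORFTOC epithelium. The NKG2D ligand genes Raet1d, Raet1e, Ulbp1, H60b and H60c were at 1.52 CPM or less in the epithelium of both pools. Outside the epithelium, Raet1d was at 4.12 CPM (FTOC) and 7.09 CPM (ORFTOC) in mesenchyme, and Ulbp1 at 11.2 and 4.10 CPM in macrophage and dendritic cells and at 9.81 and 5.46 CPM in lymphoid cells.

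Likeness was read as Pearson's r of log2(CPM + 10) over 33 groups of immune cells (cluster by pool, at least 20 cells), among 8054 genes. It is a description without a test, since all groups came from 1 lane. Xcl1 was closest to the mean of the members (r = 0.945), followed by Gm19585, Dapk2, Crtam and Cxcr3 (0.900 to 0.873). Eomes was closest to Ly6c2 (0.960) and Klrd1 (0.910), whereas Tbx21 was closest to Xcl1 (0.908) and Dapk2 (0.901). Klrd1 was nearest to Ly6c2 (0.919), Eomes (0.910) and Tbx21 (0.898).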

How the data were processed

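Gene expression, TCR and hashtag libraries came from 1 lane of mouse thymus cultures. The authors made the deposited UMI counts with Cell Ranger 6.1.2 on mm10, per the labels, which also name Seurat 4.2.0. The matrix header names another major version. The deposited contig lists hold counts of UMIs per contig. The summed counts per group ran from 5063552 to 10842294 UMIs, and precision is given as exact Poisson or Clopper-Pearson intervals. Ratios carry conditional exact binomial intervals, with a count under 3 set to 3. Coordinates are of GRCm38.p6 (RefSeq).

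Barcodes were kept with at least 600 genes and 0.4 to 10% mitochondrial UMIs (10245). HTODemux (quantile 0.99) called 8983 single cells, 590 doublets between pools and 672 negative barcodes. A rule on 50 neighbours removed 591 doublets within pools. Normalisation was by SCTransform (sctransform 0.4.2) and regressed out cell cycle scores. Cells were clustered in Seurat 5.3.0 on 18 components (resolution 0.4, then 1 for immune cells), leaving out members and other Klr genes. Lymphoid clusters and cluster names came from marker lists. Sums and intervals were computed in Python 3.11.15 (pandas 2.3.3, scipy 1.17.1, numpy 2.4.6), and clustering ran under R 4.3.3. The call rule (2 fold, 10 CPM, 10 UMIs) was tested on simulated data.

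Groups came from the labels of the hashtags. No test was made, since each pool is 1 sample. Members, lists and alternatives were chosen with earlier results of these data known. Named genes were the members, the fixed lists and the 5 genes most like their mean (3 each for Klrd1, Tbx21 and Eomes). Alternatives changed hashtag calls, doublets, the gene minimum, the lymphoid gate, contig definitions, ambient RNA, cell weights, clustering and depth. Leading genes of clusters, sex-linked genes, the splits by CD3 and Trdc, the cluster shares of groups and the epithelial Tbx21 values were chosen after their values were seen, as were the alternatives that left out Klrd1 or clusters.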

Additional observations from a re-analysis of the deposited data

Results flagged for a closer look

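A signal appeared in the unfiltered contig list of 24469 entries, which enters 1 alternative above and none of the main comparisons. Among cells without a filtered contig, an unfiltered TRB contig was present in 29.6% (23.9 to 35.8) of 240 cells of cluster 5, in 25.0% (19.8 to 30.8) of 252 cells of cluster 7 and in 26.5% (12.9 to 44.4) of 34 cells of cluster 14. The same share was 3.29% (2.57 to 4.15) in epithelial cells, 10.6% (6.48 to 16.0) in macrophage and dendritic cells and 2.43% in cluster 3, and 72.4% in the double-positive cluster 1. The TRB contigs included 12 productive ones in the 71 such cells of cluster 5, 19 in the 63 of cluster 7 and 3 in the 9 of cluster 14, against 133 in the 118 of cluster 1. Any unfiltered contig, whatever its chain, was present in 91.2% and 87.7% of the contig-free cells of clusters 5 and 7, in all 34 of those of cluster 14, in 87.3% of those of cluster 3 and in 6.77% of epithelial cells. The part of such contigs in the contrast of the members was not tested beyond the alternative that counts them.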

How the results depend on the processing

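Each pool was 1 sample, and depth limits what can be read of Klre1, of Klrc1 in ORFTOC and of Ncr1 in contig-bearing cells. No paired analysis was possible because the result comes from no test and the pools carry no replicate numbers. Values are log2 ratios of the summed members. Contig-free over contig-bearing cells, reported as 1.48 in FTOC and 1.09 in ORFTOC, ranged from 0.52 to 2.27 and from 0.29 to 1.75 over 16 settings each. Hashtags called by their ratio gave 1.33 and 0.92, any unfiltered contig 0.86 and 0.29, and doublets kept 0.94 in ORFTOC. Equal weight of cells gave 2.27 in FTOC. Leaving out Klrd1 gave 1.80 and 1.75, clusters 5, 7 and 14 alone 0.52 and 0.82, and the other clusters 0.71 and 0.54. ORFTOC over FTOC, reported as -1.03 without and -0.65 with contigs, was -1.38 and -0.81 with any unfiltered contig, -0.45 and -0.76 in clusters 5, 7 and 14, and reversed to 0.27 and 0.44 without them. Without Klrd1 it was -0.80 in contig-free cells, and with equal weight -0.01 in cells with contigs. The Klrd1 share of lymphoid cells was 6.83% thinned and 16.2% at full depth. Of 445 values for single members, 366 moved within their interval, 70 beyond it (63 with the same sign) and 9 were reversed. Of these, 7 came without clusters 5, 7 and 14: Klrd1 -0.82 (FTOC) and -0.95 (ORFTOC) for contigs, Klrd1 0.26, Klrb1c 1.07 and Tbx21 0.19 for pools without contigs, and Klrd1 0.39 and Klrb1c 0.78 for pools with contigs. The others were Eomes -0.36 in those clusters in FTOC and Tbx21 -0.75 with any unfiltered contig in ORFTOC. The causes were not tested.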

Other observations

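Tbx21 was found in epithelial cells, where the receptors were nearly absent. It had 126 UMIs in 85 of 2184 epithelial cells, at 5.78 CPM (4.52 to 7.27) in FTOC and 3.13 CPM (2.35 to 4.09) in ORFTOC, against 0.135 CPM of Eomes in both pools together. The 85 cells were deeper than the rest, with a median of 18902 against 12584 UMIs. A CD3 UMI was present in 10 of them (11.8%, 5.79 to 20.6) and in 9.58% (8.35 to 10.9) of the other 2099, and a Klrd1 UMI in 5 of the 85 and in 12 of the other 2099.

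The TRAV11 and TRAJ18 pair of segments, which forms the α chain of invariant NKT cells, was found in few cells of the member-rich clusters. In all, 1 FTOC cell and 3 ORFTOC cells lay in cluster 7 and 2 ORFTOC cells in cluster 14.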
